A study of Mus musculus with 10 samples.

Results

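The 35 genes described here code for the machinery that copies DNA in S phase and for the enzymes that supply its nucleotides. They were taken from a given list of gene symbols, and all 35 were found among the 23420 genes counted. RNA was sequenced from sorted bone marrow cells of C57BL/6 mice in 10 libraries. There were 2 libraries of pro-B cells (B220+ IgM- CD43+) from control mice, 2 of pro-B cells labelled Mta2_VavKO, 3 control libraries of small pre-B cells, sorted as B220+ IgM- CD43- with a further gate on size, and 3 such libraries labelled Mta2_VavKO. Mta2 is a subunit of the NuRD chromatin remodelling and deacetylase complex, and the Vav promoter is active across the blood lineages. The mice's ages, the alleles of the controls and the animal behind each library were not given in the sources used here, so the p-values measure the spread between these libraries, which may be technical. The design allowed the stages to be compared in each genotype, and Mta2 KO with control in each cell type.

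Replication starts at origins bound by the origin recognition complex (ORC), where Cdc6 and Cdt1 load the ring-shaped MCM helicase before S phase. Cdc45 and the GINS complex turn the loaded ring into an active helicase, polymerase alpha with primase lays down primers, and polymerases delta and epsilon extend them while tethered to the PCNA clamp. Transcription of many of these genes is driven by E2F factors and held down by the RB family when cells leave the cycle. In bone marrow, pro-B and large pre-B cells divide, and small pre-B cells are known as a largely resting stage in which the immunoglobulin light chain genes are rearranged.

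Library totals ranged from 17805507 to 52127004 counts, and 3 counts, the most that a gene listed at 0 would allow, corresponded to 0.0540 to 0.173 counts per 1000000 (CPM). Levels are CPM after scaling by the trimmed mean of M values (TMM), a method that aligns libraries on genes of moderate change. The targeted gene, Mta2, stood at 436 and 375 CPM in pro-B control and 163 and 166 in its Mta2 KO counterpart. Among small pre-B libraries it stood at 438, 246 and 412 CPM in control, against 199, 179 and 198 CPM in Mta2 KO. The groups did not overlap in either cell type, and RNA of Mta2 was still counted in each KO library. In the edgeR test described below, Mta2 had a log2 fold change of -1.31 ± 0.24 (SE) in pro-B cells, which did not pass (edgeR adjusted p = 0.212). In small pre-B cells it had -0.93 ± 0.19 and passed (edgeR adjusted p = 0.042). The marker genes followed the labelled gates in part: B lineage markers (7 genes, among them Cd79a and Pax5) summed to 2027 to 2496 CPM in pro-B and 5697 to 7145 CPM in small pre-B libraries, and the 6 small pre-B markers to 446 to 774 CPM and 4397 to 8907 CPM. The sum of the 7 pro-B markers did not separate the gates, at 1893 to 2255 CPM in pro-B and 1385 to 2543 CPM in small pre-B libraries. The highest sum was in small pre-B Mta2 KO 1. Spn, the gene of CD43, did separate them, at 461 to 515 CPM in pro-B and 89.4 to 147 CPM in small pre-B libraries. So did Flt3, at 244 to 445 and 0.886 to 3.56 CPM. Il7r ran the other way, at 267 to 359 and 766 to 1095 CPM. From pro-B to small pre-B cells, 3 of the 7 fell and 1 rose in control, and 2 fell and 1 rose in Mta2 KO. The pro-B libraries also carried markers of other cells. The 9 myeloid and granulocyte markers, none of them at 0, summed to 6299 to 6487 CPM in pro-B control and 10151 to 15062 CPM in pro-B Mta2 KO, against 103 to 376 CPM in small pre-B libraries. The 7 T cell markers, none at 0, summed to 383 to 547 CPM in pro-B libraries, 3.32 to 12.2 CPM in small pre-B control and 29.4 to 76.5 CPM in small pre-B Mta2 KO, where 3 of 7 passed the test as higher than in control. The 6 plasmacytoid dendritic cell markers summed to 3595 to 4262 CPM in pro-B and 773 to 1099 CPM in small pre-B libraries. The small pre-B sum was mostly Ly6d (366 to 755 CPM) and Tcf4 (282 to 413 CPM). Siglech stood at 0.839 to 13.7 CPM there and at 1571 to 1893 CPM in pro-B libraries. None of the 6 was at 0 in a whole group, but Klk1 and Cd209d were at 0 in some small pre-B libraries. In bulk samples, fewer cells of a type and less RNA per cell cannot be told apart.

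Small pre-B libraries stood apart from one another in 3 ways that touch the results. Small pre-B control 3 had 0.953% of its counts in replication-dependent histone genes, against at most 0.0399% in every other library, and its file header carries the title number of small pre-B control 2 in place of its own. Small pre-B Mta2 KO 1 and 2 held Xist RNA at 2518 and 2942 CPM and Y-linked RNA at 8.13 and 0.0790 CPM, and in the other 8 libraries Xist stood at or below 31.4 CPM and Y-linked RNA between 224 and 674 CPM. Small pre-B Mta2 KO 3 was low for most of the replication genes, as described for each group of genes. The pro-B and small pre-B files carry different sets of numbers in their titles, so that cell type and the handling of the libraries cannot be told apart.

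All 35 genes passed the filter on low counts. Their counts together made up 0.222% to 0.579% of a library. The summed level of the 35 genes was 5406 and 4550 CPM in pro-B control and 4341 and 3970 CPM in pro-B Mta2 KO. Among small pre-B libraries it was 2998.5, 4188 and 3093 CPM in control, and 4578, 3839 and 2296 CPM in Mta2 KO. The highest control library (replicate 2) and the highest Mta2 KO library (replicate 1) of small pre-B cells therefore lay inside the range of the pro-B libraries, and small pre-B Mta2 KO 3 was the lowest of the 10. A set of 20 genes of G2 and M phase, among them Mki67, Top2a and Ccnb1, separated the stages: they summed to 5779 to 7524 CPM in the 4 pro-B libraries and 1182 to 3390 CPM in the 6 small pre-B libraries.

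**Figure D1:**
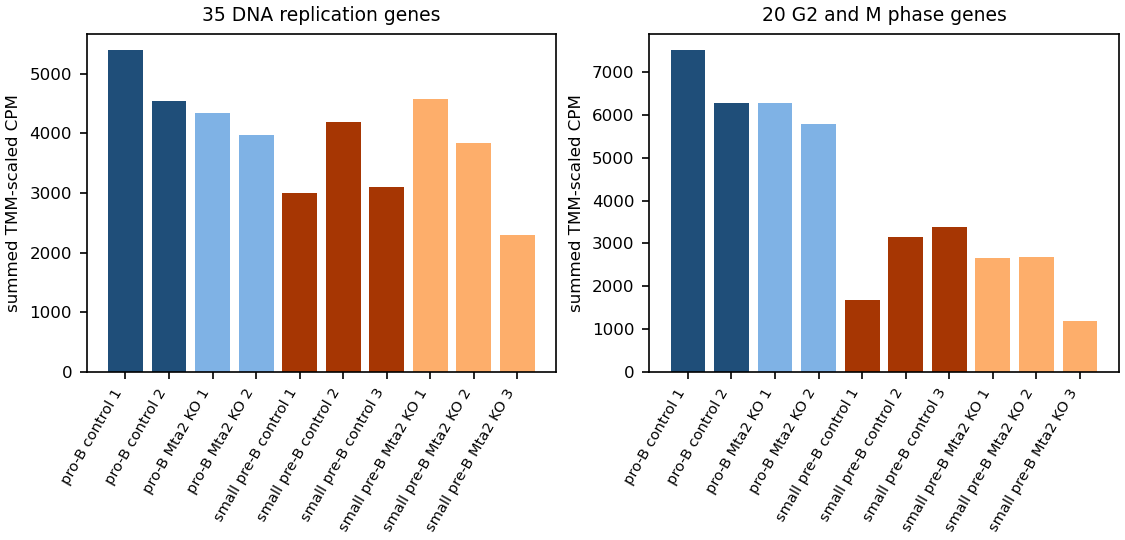
Bars give the summed TMM-scaled CPM of the 35 DNA replication genes (left) and of 20 G2 and M phase genes (right) in each of the 10 libraries, coloured by group. The replication genes of the small pre-B libraries ranged from 2296 to 4578 CPM and overlapped the pro-B libraries, whereas the G2 and M phase genes did not exceed 3390 CPM in any small pre-B library.

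To compare genes with each other, CPM was divided by exon length (RPKM). Pcna, the sliding clamp, had the highest level of the 35 in each of the 4 groups, with 219 ± 30.6 RPKM (SD, n = 2) in pro-B control and 182 ± 27.5 RPKM (n = 3) in small pre-B control. Rrm2, the small subunit of ribonucleotide reductase, came next in pro-B control at 138 ± 22.9 RPKM, followed by Mcm7 at 120 ± 14.7 RPKM. Rrm2 and Mcm7 overlapped in pro-B control, at 155 and 122 RPKM against 130 and 109 RPKM, with Rrm2 higher within each library. Orc1, the largest subunit of ORC, had the lowest level of the 35 in each group, with 4.96 ± 0.254 RPKM in pro-B control and 3.64 ± 0.142 RPKM in small pre-B control. The subunits Mcm2 to Mcm7, which make up 1 hexameric ring, lay close together: within a library the highest exceeded the lowest by 1.68-fold to 2.32-fold. Mcm4 was the lowest of the 6 in 9 libraries and Mcm5 in small pre-B Mta2 KO 3, and the highest was Mcm7 or Mcm6 in each library.

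**Figure D2:**
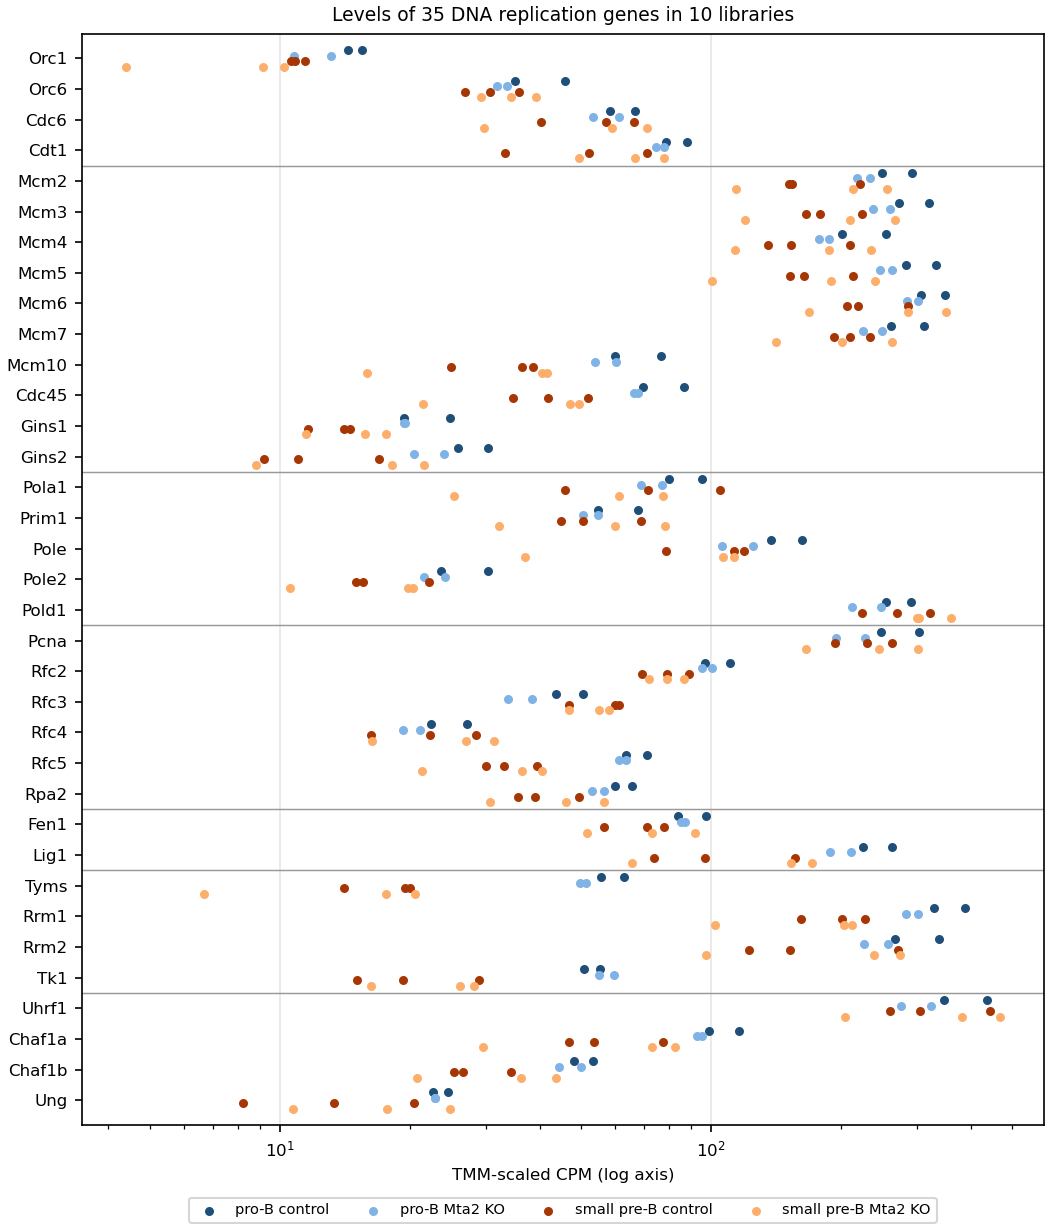
Each point is the TMM-scaled CPM (log axis) of 1 gene in 1 of the 10 libraries, with genes in rows, grey lines between the groups of genes by role, and colours for the 4 groups of libraries. Tyms, Tk1 and Rfc5 show a gap between pro-B and small pre-B libraries. Mcm5, Mcm10, Cdc45, Gins1, Rrm1, Lig1, Rfc2, Chaf1a and Chaf1b are also separate between all pro-B and all small pre-B libraries. Small pre-B Mta2 KO 3 is the lowest of the 6 small pre-B libraries in 28 of the 35 rows.

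The genes' promoters are shown first for what they share outside the RNA measurements. RefSeq windows of 250 bases before to 50 bases after the start (GRCm38.p6, the patched mm10 build) were found for 30 of the 35 genes, and not for Gins1, Gins2, Mcm4, Pole and Rfc2. The RefSeq start lay within 100 bases of the gene start in the count files for 28 of 30, and 262 bases from it for Cdc6 and 138 bases for Lig1. E2F-type motifs, searched on both strands as TTTCCCGC, TTTCGCGC, TTTGCCGC and TTTGGCGC, were present in 11 of 30 windows (36.7%). The same forms were present in 4.03% of 10378 windows of genes tested and in 2.87% of all 16355 windows. The 11 genes were Orc1, Cdc6 and Cdt1 of origin licensing, Mcm3, Mcm5, Mcm6 and Mcm7 of the helicase, the polymerase genes Pola1, Pole2 and Pold1, and the clamp loader gene Rfc3. The letters CCAAT, the core of the NF-Y motif, were present in 18 of 30 windows (60%), against 38.3% of windows of genes tested. A match of letters is no binding site, a missing match does not mean a missing site, and no factor binding was measured here.

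The 160 bases before the RefSeq start are given for 3 genes that carry the motif, as examples of how many copies a window holds, and for Tyms, the gene with the largest stage difference, which has none. They are written 5′ to 3′ on the gene's strand in GRCm38.p6, with E2F-type matches in capitals; matches of the forms on opposite strands overlap in Mcm6 and Mcm5.
Mcm6, chr1:128359706-128359865, minus strand: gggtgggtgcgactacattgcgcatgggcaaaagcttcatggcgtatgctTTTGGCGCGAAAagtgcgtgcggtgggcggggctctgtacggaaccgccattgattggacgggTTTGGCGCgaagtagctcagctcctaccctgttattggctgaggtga
Mcm5, chr8:75109349-75109508, plus strand: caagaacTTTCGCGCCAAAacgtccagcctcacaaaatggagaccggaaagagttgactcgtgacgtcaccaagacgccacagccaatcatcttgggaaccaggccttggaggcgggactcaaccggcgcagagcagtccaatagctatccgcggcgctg
Cdc6, chr11:98907991-98908150, plus strand: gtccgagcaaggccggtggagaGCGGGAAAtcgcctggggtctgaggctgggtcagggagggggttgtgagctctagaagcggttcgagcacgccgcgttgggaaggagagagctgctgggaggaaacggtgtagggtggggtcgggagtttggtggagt
Tyms, chr5:30073626-30073785, minus strand: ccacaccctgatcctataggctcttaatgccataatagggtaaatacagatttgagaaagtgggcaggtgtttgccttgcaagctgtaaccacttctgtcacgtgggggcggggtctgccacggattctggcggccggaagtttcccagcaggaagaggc
In Mcm6 the window held 3 matches, starting 110, 106 and 47 bases before the start, and in Mcm5 it held 2, at 153 and 149 bases. Cdc6 held 1 match, TTTCCCGC on the opposite strand, 138 bases before the start. Since the RefSeq start of Cdc6 lies downstream of the start in the count files (98907889 on chromosome 11, plus strand), its printed stretch lies inside the gene as counted there.

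Most replication genes leaned lower in small pre-B than in pro-B control cells, but the share that tested as lower was near that of all genes. The largest differences were in Tyms and Tk1, which supply thymidine nucleotides. In edgeR's quasi-likelihood test with Benjamini-Hochberg adjustment over 14161 genes (adjusted p under 0.05, called here), 13 of 35 genes fell from pro-B to small pre-B cells and 0 rose. That share, 37.1%, stands beside 29.4% of all genes tested that were lower, 26% that were higher and 55.4% that changed in either direction. At an unadjusted p under 0.05, 16 of 35 passed (45.7%, against 61.3%). The median log2 fold change of the 35 genes was -0.62, against -0.02 over all genes tested. Of the 35, 34 had a negative log2 fold change (97.1%, against 51% of all genes tested), and in 24 every small pre-B control library lay below both pro-B control libraries (68.6%, against 38.9%); in 0 did they lie above (against 34.1%). The G2 and M phase genes fell more uniformly, 19 of 20 with a median of -1.68. Their call counts ranged from 15 to 20 when single libraries or the doubted libraries were left out.

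In Mta2 KO cells the same comparison of stages gave fewer calls among the replication genes: 4 of 35 fell (11.4%, against 27.3% of all genes tested) and 2 rose (5.71%, against 24%), 17.1% in all against 51.3%. At an unadjusted p under 0.05, 8 of 35 passed (22.9%, against 57.5%). The median log2 fold change was -0.33, against -0.02 over all genes tested, and 28 of 35 values were negative (80%, against 50.8%). That median was -0.0775 without small pre-B Mta2 KO 3 and -0.53 without small pre-B Mta2 KO 1. The difference between the genotypes in the change from stage to stage, tested itself, passed in 0 of 35 genes. The small pre-B libraries did not overlap the pro-B libraries in 14 genes where they were lower (40%, against 39.4%) and in 2 where they were higher (5.71%, against 36.5%). The Mta2 KO libraries share no library with the control comparison. All 4 genes that fell in Mta2 KO cells, Rfc5, Tyms, Rrm1 and Tk1, had also fallen in control cells. Across the 35 genes the log2 fold changes of both genotypes correlated with r = 0.90 (Spearman's rho = 0.86), and across all 14161 genes with r = 0.87 (rho = 0.88); genes are not independent replicates. Of the G2 and M phase genes, 19 of 20 fell in Mta2 KO cells, with a median of -1.75.

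**Figure D3:**
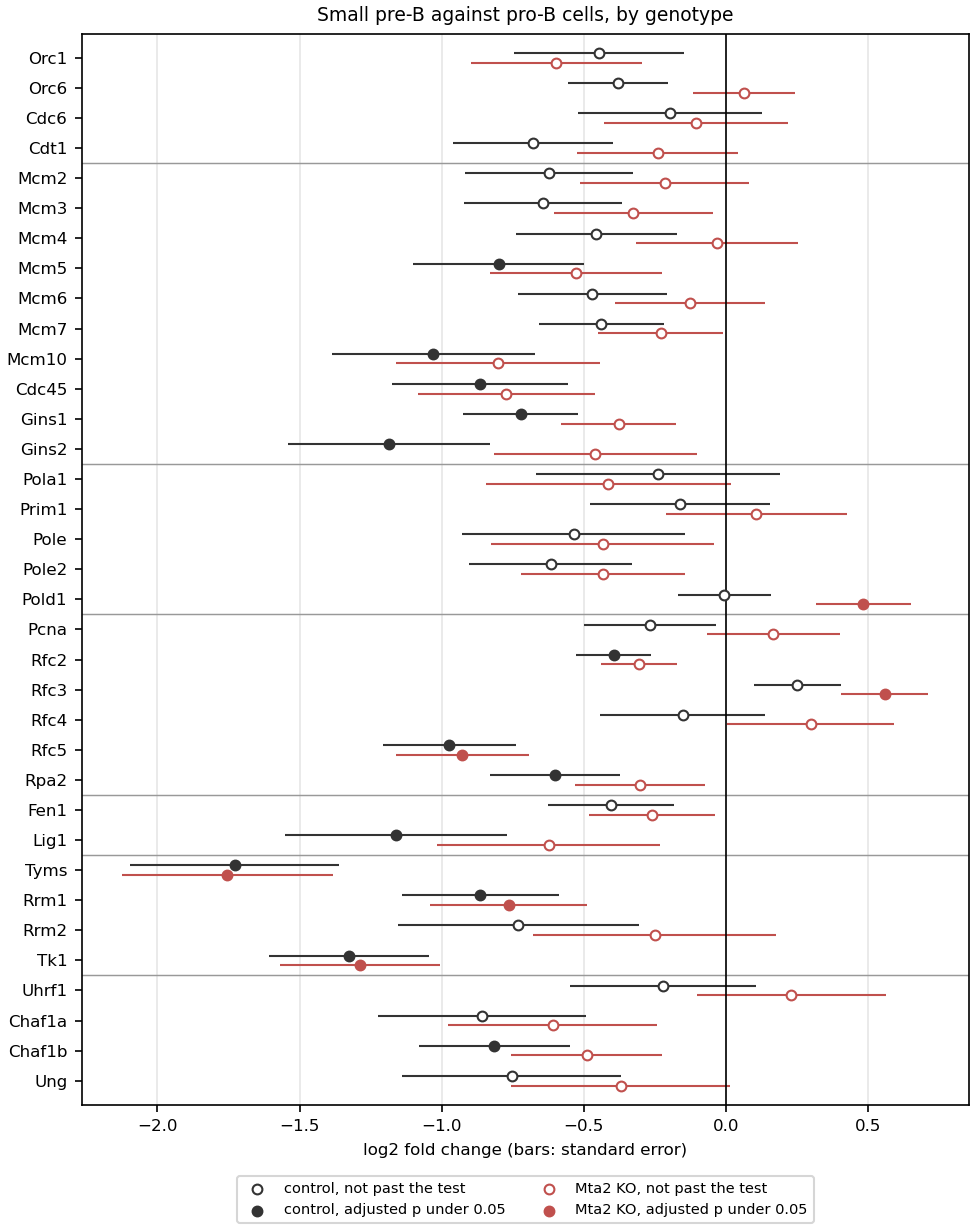
For each of the 35 genes, the log2 fold change of small pre-B against pro-B cells is shown in control (black) and in Mta2 KO (red), with bars for the standard error and filled points for adjusted p under 0.05. Tyms and Tk1 lie farthest to the left in both genotypes. Rfc3 lies to the right in both, and Pold1 lies to the right in Mta2 KO and at -0.005 in control. Rfc3 and Pold1 have filled points in Mta2 KO and open points in control.

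Of the 4 nucleotide supply genes, 3 fell in both genotypes (against 29.4% of all genes tested in control and 27.3% in Mta2 KO). Tyms and Tk1 had the largest differences of the 35 genes. Tyms codes for thymidylate synthase, which makes dTMP for DNA (mm10 chromosome 5, 30058200 to 30073625, minus strand). Its level was 63.0 and 55.5 CPM in pro-B control and 14.1, 19.98 and 19.5 CPM in small pre-B control. In Mta2 KO it was 51.2 and 49.6 CPM in pro-B and 20.6, 17.7 and 6.67 CPM in small pre-B. Each pro-B library stood above each small pre-B library, with a log2 fold change of -1.73 ± 0.37 (SE) in control (edgeR adjusted p = 0.00367) and -1.75 ± 0.37 in Mta2 KO (edgeR adjusted p = 0.00375). Per length, Tyms went from 15.6 to 4.69 RPKM in control, where Orc1 alone among the 35 genes had a lower level.

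Tk1, thymidine kinase of the salvage pathway (chromosome 11, 117815519 to 117826014, minus strand), followed the same order. It stood at 55.2 and 50.8 CPM in pro-B control, 55.0 and 59.7 in pro-B Mta2 KO, and, among small pre-B libraries, at 15.1, 29.0 and 19.3 CPM in control and 26.1, 28.1 and 16.2 CPM in Mta2 KO. The stages did not overlap in either genotype, and the log2 fold change was -1.33 ± 0.28 in control (edgeR adjusted p = 0.00361) and -1.29 ± 0.28 in Mta2 KO (edgeR adjusted p = 0.00455). Of its exon bases, 6.43% are shared with Afmid, and counting without strand leaves reads there ambiguous. Rrm1, the large subunit of ribonucleotide reductase, stood at 388 and 329 CPM in pro-B control and 162, 227 and 201 CPM in small pre-B control, a log2 fold change of -0.86 ± 0.28 (edgeR adjusted p = 0.0246). Rrm2, its partner subunit, did not pass the test: small pre-B control 2 at 271 CPM lay above pro-B control 2 at 267 CPM, and the log2 fold change was -0.73 ± 0.42.

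Of the 10 helicase genes, 5 fell in control cells (against 29.4% of all genes tested) and 0 passed the test in Mta2 KO cells (against 27.3%), and the difference between the genotypes passed in 0 of 10. Those that fell were the ring subunit Mcm5 (-0.80 ± 0.30, log2 fold change ± SE), Mcm10, which helps activate the helicase (-1.03 ± 0.36), its cofactor Cdc45 (-0.86 ± 0.31), and the GINS subunits Gins1 (-0.72 ± 0.20) and Gins2 (-1.19 ± 0.36). Mcm5 stood at 333 and 283 CPM in pro-B control, and at 152, 214 and 164 CPM in small pre-B control. Gins2 stood at 30.4 and 25.9 CPM in pro-B control, and at 10.98, 17.0 and 9.20 CPM in small pre-B control. Neither gene overlapped between the stages in control libraries. The other ring subunits, Mcm2, Mcm3, Mcm4, Mcm6 and Mcm7, had log2 fold changes of -0.64 to -0.44 in control with no call. In Mta2 KO cells the 10 genes had log2 fold changes from -0.80 for Mcm10 to -0.03 for Mcm4. Of the exon bases of Gins2, 11.4% are shared with Gse1.

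The clamp, loader and single-strand binding genes differed among themselves. Rfc5, a subunit of the loader that places PCNA on DNA (chromosome 5, 117379145 to 117389023, minus strand), stood at 70.9 and 63.4 CPM in pro-B control and at 30.0, 39.4 and 33.2 CPM in small pre-B control. In Mta2 KO it stood at 63.3 and 61.2 CPM in pro-B and at 40.4, 36.5 and 21.4 CPM in small pre-B. The stages were separate in both genotypes, with log2 fold changes of -0.97 ± 0.23 (edgeR adjusted p = 0.00677) and -0.93 ± 0.23 (edgeR adjusted p = 0.00934). Rfc2, another loader subunit, fell in control by 0.39 on the log2 scale, and Rpa2, a subunit of the single-strand binding protein, fell by 0.60. Pcna itself had a log2 fold change of -0.27 ± 0.23 in control and 0.17 ± 0.23 in Mta2 KO, and Rfc4 had -0.15 ± 0.29 and 0.30 ± 0.29, with no call for either. Of the exon bases of Rfc4, 13.2% are shared with Eif4a2.

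Rfc3, a further loader subunit (chromosome 5, 151642824 to 151651208, minus strand), had the highest log2 fold change of the 35 in both genotypes. It stood at 38.4 and 33.9 CPM in pro-B Mta2 KO and at 57.9, 55.1 and 46.8 CPM in small pre-B Mta2 KO. It rose there by 0.56 ± 0.15 on the log2 scale (edgeR adjusted p = 0.0142), and no library of the pair of groups overlapped. In control it stood at 50.4 and 43.7 CPM in pro-B and 46.9, 59.9 and 61.2 CPM in small pre-B cells, which overlap, with a log2 fold change of 0.25 ± 0.15 (edgeR adjusted p = 0.186). The difference between those changes was itself tested and was 0.31 ± 0.22 (edgeR adjusted p = 0.796). Without pro-B Mta2 KO 2 the adjusted p of Rfc3 in Mta2 KO cells was 0.118, and without both libraries that hold Xist RNA it was 0.194.

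The polymerase and primase genes gave no call in control cells (against 55.4% of all genes tested). Pold1, the catalytic subunit of polymerase delta (chromosome 7, 44532744 to 44548815, minus strand), stood at 291 and 254 CPM in pro-B control and 270, 322 and 224 CPM in small pre-B control, a log2 fold change of 0.00 (95% interval -0.38 to 0.37). In Mta2 KO it stood at 247 and 213 CPM in pro-B and 361, 300 and 304 CPM in small pre-B cells, where it rose by 0.48 ± 0.17 on the log2 scale (edgeR adjusted p = 0.037). That call was lost in 9 of 20 alternatives, with adjusted p up to 0.231 without pro-B Mta2 KO 2. Under scaling by total counts, which lowers the median of all genes by 0.10 in this comparison, the rise was 0.38 (adjusted p = 0.115). Pole and Pole2, subunits of polymerase epsilon, had log2 fold changes of -0.54 ± 0.39 and -0.62 ± 0.29 in control, and Prim1, the primase subunit that makes the RNA primer, had -0.16 ± 0.32.

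Pola1, the catalytic subunit of polymerase alpha (chromosome X, 93304766 to 93632155, minus strand), varied most of the 35 genes within small pre-B cells. There its level was 45.9, 71.3 and 105 CPM in control and 77.5, 61.2 and 25.3 CPM in Mta2 KO, a 4.16-fold range over the 6 libraries. Small pre-B control 3 was the highest and small pre-B Mta2 KO 3 the lowest. In the 4 pro-B libraries its levels lay between 68.6 and 95.1 CPM, a 1.39-fold range. At the other end, Rfc2 varied 1.28-fold over the small pre-B libraries.

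Of the flap processing and ligation genes, Lig1, the ligase that joins Okazaki fragments, fell in control by 1.16 ± 0.39 on the log2 scale (edgeR adjusted p = 0.0306). It stood at 263 and 225 CPM in pro-B control and 96.9, 157 and 73.8 CPM in small pre-B control, with no overlap. In Mta2 KO the log2 fold change was -0.62 ± 0.39 and did not pass the test. Fen1, the nuclease that trims flaps, had -0.40 ± 0.22 in control and -0.26 ± 0.22 in Mta2 KO, with no call. Of the exon bases of Lig1, 3.30% are shared with another gene.

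Among the genes for chromatin and repair at the fork, Chaf1b, a subunit of the histone chaperone CAF-1, fell in control by 0.81 ± 0.26 on the log2 scale (edgeR adjusted p = 0.0263). Its levels were 53.3 and 48.0 CPM in pro-B control and 25.4, 34.4 and 26.6 CPM in small pre-B control, which do not overlap. Chaf1a, the large subunit of the same complex, had a log2 fold change of -0.86 ± 0.37 and missed the threshold (edgeR adjusted p = 0.0724), although its libraries did not overlap either. Ung, the uracil glycosylase that removes uracil from DNA, had -0.75 ± 0.38 and Uhrf1, which guides DNA methylation behind the fork, -0.22 ± 0.33, with no call. None of the 4 passed the test in Mta2 KO cells, where the values ran from -0.61 for Chaf1a to 0.23 for Uhrf1.

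Of the origin licensing genes, 0 of 4 passed the test in either genotype (against 55.4% of all genes tested in control and 51.3% in Mta2 KO). The log2 fold changes in control were -0.45 ± 0.30 for Orc1, -0.38 ± 0.18 for Orc6, -0.20 ± 0.32 for Cdc6 and -0.68 ± 0.28 for Cdt1. Cdt1 stood at 88.1 and 78.5 CPM in pro-B control and at 52.2, 70.9 and 33.2 CPM in small pre-B control; those libraries do not overlap, and the edgeR adjusted p was 0.0656. In Mta2 KO cells the 4 values lay between -0.60 for Orc1 and 0.06 for Orc6.

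The number of calls depended on single libraries. In control cells, the 13 calls (7847 over all genes) became 4 when small pre-B control 1 was left out (7651). A fit lacking either pro-B control library rests on 1 library in that group, so its effect size alone is given. The median log2 fold change was -0.51 when replicate 1 was dropped and -0.74 when replicate 2 was dropped. The calls became 7 without small pre-B control 3 (8086 over all genes) and 20 without small pre-B control 2 (7902). They became 21 (8026) without small pre-B Mta2 KO 3, which enters the shared estimate of spread. Without replicate 3 of both small pre-B groups they became 22 (8750). All calls in these alternatives were lower in small pre-B cells. In Mta2 KO cells, the 6 calls (7262 over all genes) became 7 without small pre-B Mta2 KO 1 (6580). They became 5 without small pre-B Mta2 KO 2 (6501) and 5 without small pre-B Mta2 KO 3 (6412). With 1 pro-B Mta2 KO library, the median log2 fold change was -0.27 when replicate 1 was dropped and -0.37 when replicate 2 was dropped. With both small pre-B Mta2 KO libraries that hold Xist RNA left out, small pre-B Mta2 KO 3 alone stood for its group, and the median log2 fold change was -1.06. Tyms and Tk1 kept their calls in 20 of 20 alternatives in both genotypes, and Rfc5 in 20 of 20 in control and 19 of 20 in Mta2 KO.

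In pro-B cells, Mta2 KO changed no replication gene past the test. In edgeR's quasi-likelihood test 0 of 35 genes passed (0.0353% of all genes tested did), and DESeq2 and limma-voom also gave 0. The targeted gene, Mta2, did not pass the edgeR test there either (log2 fold change -1.31, edgeR adjusted p = 0.212), so the lack of calls cannot exclude a change. At an unadjusted p under 0.05, 1 of 35 passed (2.86%, against 6.45% of all genes tested). The values nevertheless leaned one way: 34 of 35 log2 fold changes were negative (97.1%, against 51.2%), with a median of -0.25, against -0.01 over all genes tested. Without pro-B control 1 the median was -0.13. In 26 of 35 genes both Mta2 KO libraries lay below both control libraries (74.3%, against 28.1%), and in 0 they lay above (against 27.4%). Pro-B control 1 was the highest of the 4 in 34 genes (28.8% of all genes tested), and pro-B Mta2 KO 2 was the lowest in 31 (29.2%). The summed myeloid markers, given with the libraries, were higher in both pro-B Mta2 KO libraries than in both controls, and their part in this pattern was not tested.

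The 5 replication genes with the smallest p in this comparison were Rfc3, Orc6, Pcna, Pold1 and Mcm7. Rfc3 stood at 50.4 and 43.7 CPM in control and 38.4 and 33.9 CPM in Mta2 KO, a log2 fold change of -0.38 ± 0.17 with an unadjusted p of 0.0479 (edgeR adjusted p = 0.769). Pcna stood at 303 and 249 CPM in control and 228 and 195 CPM in Mta2 KO, a log2 fold change of -0.38 (95% interval -0.96 to 0.19). Orc6, a small ORC subunit, had -0.31 (-0.74 to 0.13), Pold1 -0.25 (-0.65 to 0.16) and Mcm7 -0.28 (-0.82 to 0.27). None of the 4 genes other than Rfc3 had an interval that excluded 0. Tk1, at 0.11 ± 0.31, was the 1 gene of the 35 with a positive value.

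In small pre-B cells, Mta2 KO changed no replication gene past the test either, and the values did not lean one way. In edgeR's quasi-likelihood test 0 of 35 passed (3.02% of all genes tested did, 1.14% lower and 1.89% higher), 0 of 35 had an unadjusted p under 0.05 (against 24.7%), and DESeq2 and limma-voom gave 0. The median log2 fold change was 0.06, and its sign rested on single libraries: it was -0.0194, 0.22 and -0.00847 without small pre-B control 1, 2 and 3, and -0.14, 0.00946 and 0.30 without small pre-B Mta2 KO 1, 2 and 3. Of the values, 13 of 35 values were negative (37.1%, against 49%). In Orc1 alone did the libraries of both genotypes not overlap (2.86%, against 11.7% lower), and in 0 genes did the Mta2 KO libraries lie above the controls (against 13.3%). Orc1 stood at 10.6, 10.8 and 11.4 CPM in control and 10.2, 9.13 and 4.38 CPM in Mta2 KO, a log2 fold change of -0.47 ± 0.28 (edgeR adjusted p = 0.315). Without small pre-B Mta2 KO 3 the value was -0.18.

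The other 4 genes with the smallest p were Pold1, Cdt1, Gins2 and Pola1. Pold1 had a log2 fold change of 0.24 (95% interval -0.09 to 0.57). Cdt1, which loads the MCM ring, had 0.31 (-0.27 to 0.89), Gins2 had 0.39 (-0.35 to 1.12) and Pola1 had -0.44 (-1.32 to 0.44). These intervals all include 0 and reach changes of more than 0.5 in size, which the libraries therefore leave possible for these 4 genes.

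**Figure D4:**
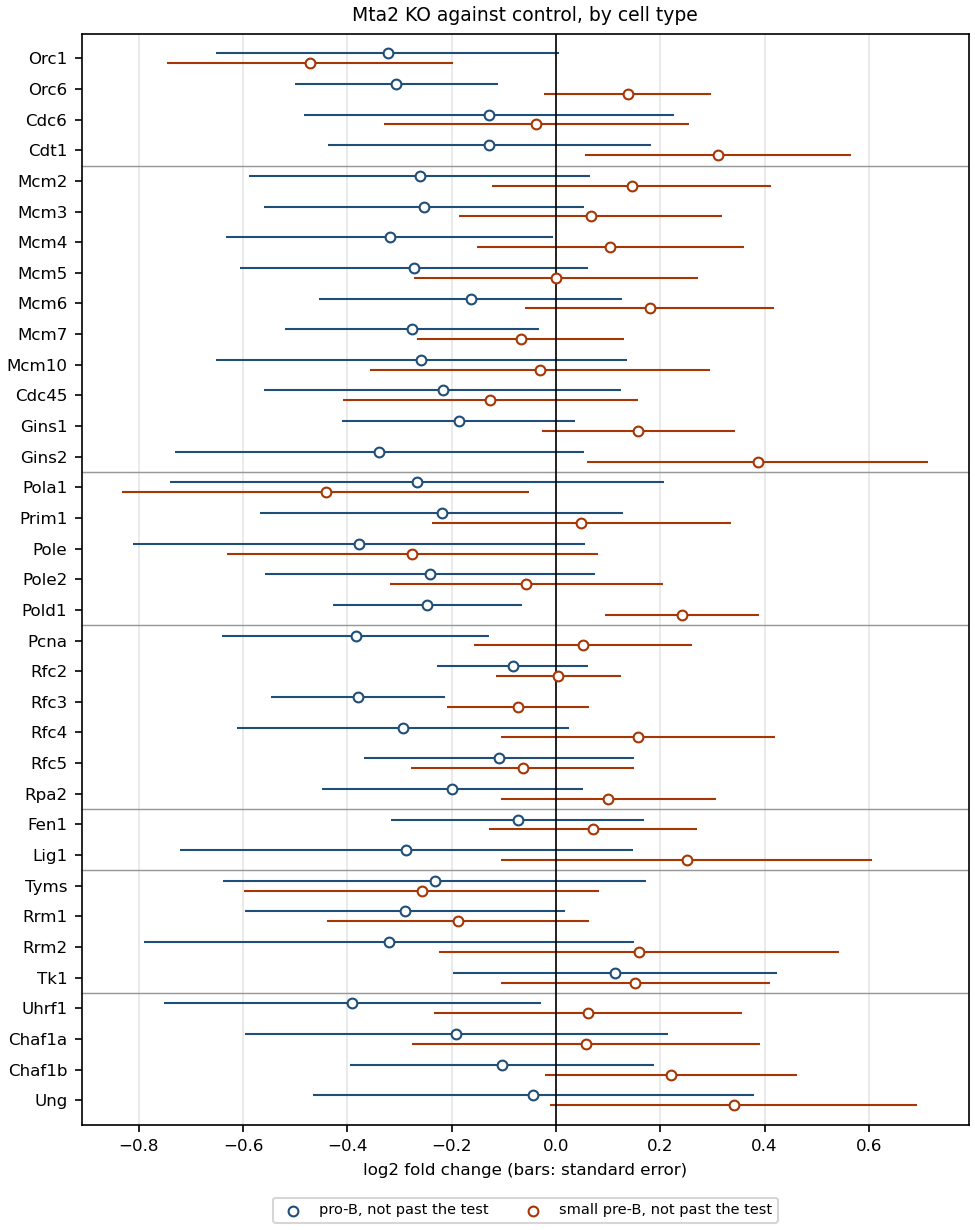
For each of the 35 genes, the log2 fold change of Mta2 KO against control is shown in pro-B cells (blue) and small pre-B cells (orange-brown), with bars for the standard error; open points mark that no gene passed the test. The pro-B values lie left of 0 for 34 genes, with a median of -0.25, and the small pre-B values lie on both sides of 0, from -0.47 to 0.39.

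The small pre-B Mta2 KO libraries differed widely among themselves. Relative to the mean over small pre-B libraries, the median deviation of the 35 genes on the log2 scale was -0.17, 0.32 and -0.11 in the 3 controls and 0.42, 0.19 and -0.62 in the 3 Mta2 KO libraries, against -0.01 to 0.01 over all genes tested. Small pre-B Mta2 KO 3 was the lowest of the 6 libraries in 28 of 35 genes (20.5% of all genes tested), and small pre-B Mta2 KO 1 was the highest in 25 (17.8%). The latter also had the highest sum of pro-B markers, whose part in this was not tested. Mcm6 shows the pattern, with 207, 287 and 219 CPM in control and 351, 287 and 169 CPM in Mta2 KO. The G2 and M phase genes had their lowest sum, 1182 CPM, in the same library, small pre-B Mta2 KO 3. Small pre-B control 3, the library rich in histone RNA, was the lowest in Orc6, Cdt1, Pold1, Rfc2, Rfc4 and Ung and the highest in Orc1, Pola1 and Rfc3. Small pre-B Mta2 KO 3 is also the 1 Mta2 KO library of its cell type with Y-linked RNA at the level of the controls. With the other small pre-B Mta2 KO libraries left out, the median of the 35 genes was -0.61 and still 0 genes passed.

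The effect of Mta2 KO was not shown to differ between the cell types. In the test of that difference 0 of 35 genes passed in edgeR, as did 0% of all genes tested, and 0 of 35 had an unadjusted p under 0.05 (against 6.4%). DESeq2 and limma-voom gave 0 of 35, and DESeq2 called 58 other genes. The difference, small pre-B effect minus pro-B effect, was positive in 32 of 35 genes and negative in 3 (8.57%, against 49.3% of all genes tested). Its median was 0.30, against 0.01 over all genes tested. The median was 0.0565 without small pre-B Mta2 KO 1, 0.54 without small pre-B Mta2 KO 3 and 0.16 without pro-B control 1. The 5 genes with the smallest p were Pold1 (0.49 ± 0.23), Orc6 (0.44 ± 0.25), Rfc3 (0.31 ± 0.22), Gins2 (0.73 ± 0.51) and Pcna (0.43 ± 0.33), with edgeR adjusted p from 0.768 to 0.803. With both libraries that hold Xist RNA left out, the median difference was -0.36; there small pre-B Mta2 KO 3 was the 1 library of its group, and the spread came from the other groups.

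Other genes of the pathway, taken from fixed lists that hold none of the 35 genes, are given beside the shares of all genes tested, which were 29.4% lower and 26% higher in small pre-B cells in control and 27.3% and 24% in Mta2 KO. Of 20 licensing and origin firing genes, 6 fell and 4 rose in control, and 5 fell and 2 rose in Mta2 KO, counts near or under those shares. Those with the smallest p in control were Orc4, another ORC subunit, which rose by 1.23 on the log2 scale, and Dbf4, the activator of the Cdc7 kinase that fires origins, with a log2 fold change of -1.24. Of 22 polymerase, clamp and fork genes, 7 fell and 0 rose in control, with Pold2 at -1.48 and Pole3 at -0.67, and in Mta2 KO 3 fell and 5 rose, Pold2 at -1.37 and Top1 at 0.65 having the smallest p. Pold2 codes for an accessory subunit of polymerase delta.

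Of 18 further nucleotide supply genes, 11 fell and 5 rose in control, and 8 fell and 4 rose in Mta2 KO. Rrm2b, the ribonucleotide reductase subunit used outside S phase, rose by 2.98 on the log2 scale in control and by 3.02 in Mta2 KO, with adjusted p of 6.51e-06 and 5.63e-06 in edgeR. Shmt2, a mitochondrial enzyme of one-carbon metabolism, had a log2 fold change of -1.38 in control and -1.15 in Mta2 KO. Dck, which salvages deoxycytidine, rose by 1.10 and 1.76. The ribonucleotide reductase genes thus ran in different directions, with Rrm1 lower and Rrm2b higher in small pre-B cells of both genotypes. Of 11 chromatin assembly and maintenance genes, 2 fell and 1 rose in control, with the histone chaperone Asf1a at 1.96 and Rbbp7 at -0.84. In Mta2 KO 1 of them fell and 2 rose, with Asf1a at 1.46 and Rbbp7 at -0.62.

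Between Mta2 KO and control, these lists of 20, 22, 18 and 11 genes gave 1 call. Of all genes tested, 3.02% passed in small pre-B cells and 0.0353% in pro-B cells. In small pre-B cells Tk2, the mitochondrial thymidine kinase, had a log2 fold change of -0.45 (edgeR adjusted p = 0.035). None of the 20 licensing, 22 fork or 11 chromatin genes passed there, and none of these lists' genes passed in pro-B cells.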

How the data were processed

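The deposited files hold raw counts of reads per gene, 1 library per file, which the authors made with featureCounts 1.4.3-p1 over exons of an mm10 annotation with no strand option, per the file headers. Genome mm9, STAR and CASAVA 1.82 appear in the submitters' processing notes; the coordinates in the files are mm10 and are printed as such. The library kit is a stranded mRNA kit per the labels.

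The 35 genes and all gene lists were chosen with earlier results of these data known. All fits used R 4.3.3. The filterByExpr function of edgeR 4.0.16, given the 4 groups, a minimum count of 10 and a minimum total of 15, kept 14161 of 23420 genes. Libraries were scaled by TMM, and a quasi-likelihood model with 4 group means and robust dispersions took in the 10 libraries together. The Benjamini-Hochberg adjustment ran over all genes tested, at a threshold of 0.05. Fold changes use a prior count of 0.125, and 95% intervals come from the fitted standard error and the model's degrees of freedom. RPKM is CPM divided by the exon length in the files. Motifs were searched in RefSeq promoter windows. In comparisons of Mta2 KO with control, values are given for genes past the threshold and otherwise for the 5 with the smallest p, and for other lists for the 2 with the smallest p; Mcm6, Dck in control and the genes named for their spread were chosen after their values were seen. The script was tested on simulated counts. Alternatives were other scalings, DESeq2 1.42.0, limma-voom (limma 3.58.1), other filters, the compared groups alone, a replicate block, a fold threshold, and each library left out. Leaving out libraries by Xist RNA or leaving out replicate 3 of both small pre-B groups was chosen after seeing the data. One gene of the B lineage list is not reported here and was left out of that list's sum.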

Additional observations from a re-analysis of the deposited data

How the results depend on the processing

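A threshold of 1 on the size of the log2 fold change left 5 genes in the control comparison of stages (4683 over all genes) and 2 in that of Mta2 KO (4305). Leaving out single libraries gave 3 to 21 genes in control and 3 to 7 in Mta2 KO, 22 genes were called in control without replicate 3 of both small pre-B groups, and 23 in Mta2 KO with the small pre-B libraries that hold Y-linked RNA alone; DESeq2 gave 16 and 9, limma-voom 15 and 8. Scaling by total counts lowered the median of all genes by 0.16 in the control comparison, where 18 replication genes and, of all genes, 2933 higher and 4907 lower were called, against 3687 and 4160 with TMM. No replication gene was called in any comparison of Mta2 KO with control under any of 22 alternatives, or in the difference between cell types under 21. Over all genes those alternatives called 0 to 856 in pro-B cells, against 5 in the fit of all libraries, and 0 to 1869 in small pre-B cells, against 428. With the libraries that hold Y-linked RNA alone, the sign turned for Cdt1 (-0.0725) and Gins2 (-0.49) in small pre-B cells and for Gins2 (-0.15) and Pcna (-0.0771) in the difference. Without replicate 3 of both small pre-B groups it turned for Pola1 (0.22). The cause was not tested.

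Control and Mta2 KO libraries share numbers in their titles. Same-numbered small pre-B libraries deviated together with r = 0.0971, 0.145 and 0.0390, and each correlated best with its own number. In pro-B cells r was 0.00768. With 2 libraries in a group, deviations from the group mean mirror each other, so that this is 1 value and cannot decide on pairing. The numbers were not taken to pair the libraries in the main fit. With the title number as a replicate block, 0 replication genes were called in pro-B cells, 0 in small pre-B cells and 0 in the difference, and 0, 153 and 0 of all genes.

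Limits are the 2 to 3 libraries of a group, the lower totals of the small pre-B libraries and counting without strand. Single E2F-type forms gave shares from 0% for TTTGCCGC to 20% for TTTGGCGC, and as parts of the joint search could not exceed its 36.7%.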

Other observations

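Of 13 E2F and RB family genes, 5 fell and 3 rose from pro-B to small pre-B cells in control, and 3 fell and 3 rose in Mta2 KO. Of all genes tested, 29.4% were lower and 26% higher in control, and 27.3% and 24% in Mta2 KO, so that these counts stand near the background. Tfdp2, a dimer partner of E2F factors, rose by 1.77 on the log2 scale in control and 1.72 in Mta2 KO, and Rb1, the retinoblastoma protein gene, by 1.58 and 1.48 (each with an adjusted p under 0.05 in edgeR). Of 10 genes of arrest and quiescence, 7 rose and 1 fell in control, and 7 rose and 2 fell in Mta2 KO. Foxo1, a transcription factor active in resting cells, rose by 1.95 in control and 2.13 in Mta2 KO, and Ccng2 by 1.56 in both. None of these genes passed the test between Mta2 KO and control in either cell type.

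Replication genes with and without an E2F-type motif in the promoter window were set side by side after their values had been seen, as a description with no test. Genes without a match may hold sites of other sequence or outside the window, which the search would miss. Gins1, Gins2, Mcm4, Pole and Rfc2 had no window and are in neither set, although Gins1, Gins2 and Rfc2 were called lower in control. In the control comparison of stages, 1 of 11 genes with a motif (Mcm5) and 9 of 19 without one were lower. Of all genes tested, 29.4% were lower there. The medians were -0.45 and -0.75 on the log2 scale. In Mta2 KO, 0 of 11 and 4 of 19 were lower (against 27.3% of all genes tested), with medians of -0.24 and -0.37. Both genes that rose, Rfc3 and Pold1, held a motif.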
